A study of Mus musculus with 8 samples.

Results

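The genes described here are those of the machinery with which a cell senses oxygen through the hypoxia-inducible factors (HIF). They are the alpha subunits Hif1a, Epas1 and Hif3a, the beta subunits Arnt and Arnt2, the prolyl hydroxylases Egln1, Egln2 and Egln3, the ubiquitin ligase subunit Vhl and the asparaginyl hydroxylase Hif1an. They were chosen by their symbols and not by their values, though earlier results of these data were known by then. All 10 were found among the 22274 genes of the table. RNA-seq was performed in cultured primary fibroblasts of the mouse heart, the cells that lay down its collagen. There were 4 libraries of cells with a control virus for GFP, called Ad-EV (GFP) here, and 4 of cells with a virus for IRF7, an interferon regulatory transcription factor, called Ad-IRF7. All 8 libraries came from cells treated with TGF-β, the cytokine that turns fibroblasts into myofibroblasts, so no untreated cells enter the comparison. The adenoviruses in the reagent list of the study, empty and with IRF7, carry the CMV promoter, which is active in most cell types, and EGFP. The strain of the mice these cells came from and the oxygen level of the cultures were not given in the sources used here. The labels do not say whether the 4 libraries of a group came from separate cultures or animals. The study describes biological replicates for this experiment, but fewer than the 4 libraries deposited per group, and does not say which these were. P-values therefore measure only the spread between these libraries, which may be technical.

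In a cell with enough oxygen, the prolyl hydroxylases, products of the Egln genes, place hydroxyl groups on the HIF alpha subunits. The VHL protein recognizes the hydroxylated form and, with its ligase partners, marks it for degradation. FIH, the product of Hif1an, hydroxylates an asparagine instead and keeps the alpha subunit from binding its coactivators. When oxygen is short these enzymes slow down, the alpha subunit accumulates, pairs with ARNT and binds hypoxia response elements near genes of glucose metabolism, blood vessel growth and mitochondrial turnover. Egln3 and Egln1 are themselves known HIF targets in many cells, so the sensors form a feedback loop. Since this control acts largely on protein, mRNA levels do not measure HIF activity.

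Total counts per library lay between 24454801 and 28658826. Mouse Irf7 fell from 118 ± 24.0 in the control libraries to 15.2 ± 0.822 under the label Ad-IRF7 (SD, n = 4), in counts divided by the TMM-scaled library size and called CPM here, a log2 fold change of -2.96 (adjusted p = 7.7e-11, edgeR's quasi-likelihood test). The study states that the fibroblasts sequenced in this experiment received an adenovirus, either empty or with IRF7. The adenovirus with IRF7 is listed under the human gene, and for it these counts of a mouse gene do not check the labels. The deposited design, however, names an adeno-associated virus. In the reagent list of the study, the virus of that kind with IRF7 carries the mouse gene and the periostin promoter. The study describes its injection into mice, not its use in these cultures. With that virus a rise of mouse Irf7 would be looked for, whereas a fall was counted. Which virus these cells received was not tested, so the labels remain unchecked. Every direction is thus given between the libraries as labelled. Of 13533 genes tested, 29.0% were called higher and 29.9% lower under the label Ad-IRF7 at an adjusted p under 0.05. With a fold change past 1.5 as well, 9.26% were called higher and 9.64% lower, and for 53.8% the CPM of the groups did not overlap.

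Among the 9 HIF pathway genes that passed the filter on low counts, 3 rose (Hif1a, Egln1, Egln3), 4 fell (Epas1, Arnt, Arnt2, Hif1an) and 2 were not called (Egln2, Vhl). Hif3a was too low to be tested. Past 1.5-fold there were 1 rise, Egln3, and 1 fall, Epas1. For 7 of the 9 the groups did not overlap. With differences called in so many genes of the table, these counts do not set the pathway apart from the other genes. The sizes varied more than the counts did, since Epas1 moved by more than 95.4% of all tested genes and Egln3 by more than 93.2%, while the log2 fold change of Arnt was -0.11.

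The promoter sequences of the 3 genes that rose are shown because the hypoxia response element is the site at which HIF binds the genes it controls, Egln1 and Egln3 among them. They are taken from RefSeq (GRCm38.p6), from 250 bases before the start site up to the first base that lies in an annotated exon, 5′ to 3′ on the strand of the gene. Capitals mark the cores of the element, ACGTG and GCGTG, on either strand.
Hif1a, chr12:73907617-73907866, plus strand: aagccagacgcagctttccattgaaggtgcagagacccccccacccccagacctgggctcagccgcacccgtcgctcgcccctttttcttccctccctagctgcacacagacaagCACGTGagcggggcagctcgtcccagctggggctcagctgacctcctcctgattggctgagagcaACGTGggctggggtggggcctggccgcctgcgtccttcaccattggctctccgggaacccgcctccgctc
Egln1, chr8:124949325-124949504, minus strand: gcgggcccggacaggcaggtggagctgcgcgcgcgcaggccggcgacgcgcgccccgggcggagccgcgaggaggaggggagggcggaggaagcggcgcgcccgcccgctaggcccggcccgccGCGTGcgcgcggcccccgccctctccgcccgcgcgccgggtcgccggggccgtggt
Egln3, chr12:54203875-54204124, minus strand: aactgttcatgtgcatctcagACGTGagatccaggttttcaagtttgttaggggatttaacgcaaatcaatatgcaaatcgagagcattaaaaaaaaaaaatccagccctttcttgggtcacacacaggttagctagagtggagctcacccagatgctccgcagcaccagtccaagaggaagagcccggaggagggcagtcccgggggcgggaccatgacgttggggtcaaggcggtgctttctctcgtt

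Hif1a held the palindrome CACGTG, which counts as a match on both strands at -135 and -134 from the start site, and a further ACGTG at -70. The start site used for Hif1a, 73907867, lies inside the gene span given below, which begins at 73901375. In Egln1, GCGTG lay at -126 in the stretch shown and ACGTG at -68, past the first annotated exon base and not shown. Egln3 had a single ACGTG at -229. Over windows of 300 bases, from 250 before to 50 after the start site, 9 of the 10 genes were found, all but Epas1, with 10 windows in all since Egln2 has a pair. A core of either form was present in 7 of these 10 windows, against 43.8% of 32851 windows of all genes. The Egln2 window at its upstream start held 6 matches, and 3.9% of all windows held 4 or more, whereas the windows of Vhl, Hif1an and Arnt2 held none. The core of the IRF motif, AANNGAAA, was present in 5 of the 10 windows, against 23.9% of all, with 4 matches in Vhl, some of which overlap. Matches of so few letters are common and describe the sequence only. All 3 genes that rose held a core of the element, and so did Arnt, which fell, and Egln2, which was not called.

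Hif1a was the most abundant of these genes and rose moderately. It encodes HIF-1α, the alpha subunit present in nearly all cells. Hif1a (ENSMUSG00000021109) lies on chromosome 12 of GRCm38 between 73901375 and 73947530, on the plus strand. Its level was 482, 394, 558 and 437 CPM in the controls (replicates 1 to 4), and 632, 571, 860 and 564 CPM under the label Ad-IRF7 (replicates 1 to 4). Every library labelled Ad-IRF7 lay above every control, the nearest values being 564 and 558 CPM, and replicate 3 was the highest in both groups. The means were 468 ± 69.9 and 657 ± 139 CPM (SD, n = 4), 1.40-fold apart, with a log2 fold change of 0.49 (SE 0.12, 95% interval 0.23 to 0.75, adjusted p = 0.0028, edgeR). Leaving out Ad-IRF7 replicate 3, the highest library, gave 0.33 (adjusted p = 0.0025). A pair of short gene models overlap its exons, Gm15283 on the opposite strand over 5.6% of the exon bases, without a value in the table, and Gm49321 on the same strand over 2.5%, with 0 counts in all libraries.

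Epas1 showed the largest difference among the 9 genes tested. It encodes HIF-2α, which binds the same element as HIF-1α but controls a partly different set of genes and is best known from endothelial cells and from the fibroblast-like cells of the kidney that make erythropoietin. Epas1 (ENSMUSG00000024140) lies on the plus strand of chromosome 17, from 86753700 to 86833410. It was counted at 224, 228, 193 and 204 CPM in the controls (replicates 1 to 4), and at 86.5, 88.4, 69.3 and 82.6 CPM under the label Ad-IRF7. All 4 libraries labelled Ad-IRF7 were far below the lowest control, and replicate 3, the highest for Hif1a, was the lowest for Epas1 in both groups. From 213 ± 16.6 to 81.7 ± 8.60 CPM (SD, n = 4), Epas1 fell 2.60-fold, a log2 fold change of -1.38 (SE 0.07, 95% interval -1.53 to -1.23, adjusted p = 5.7e-10, edgeR).

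In RNA of a whole culture, fewer cells of a type and less RNA per cell cannot be told apart, so markers of other cell types were read beside Epas1. The summed level of 10 endothelial markers was 241.1 to 253.8 CPM in the control libraries and 247.7 to 273.9 CPM in those labelled Ad-IRF7, with 5 markers called higher and 1 lower. That 1, Cdh5, the cadherin of endothelial junctions, went from 100 to 92.9 CPM, and Pecam1, which was not called, was at 45.6 and 45.2 CPM. Kdr (6.5 to 11.3 CPM), Vwf (9.79 to 13.7) and Emcn (31.2 to 38.2) were called higher. So were Cldn5 (4.24 to 5.92 CPM) and Esam (8.02 to 10.03). The median log2 fold change of the 10 endothelial markers was 0.22. The summed endothelial levels overlapped between the groups. The sum of 8 mural cell markers was 1465 to 1581 and 1324 to 1475 CPM (2 of 7 tested higher, 4 lower), that of 7 epicardial markers 160.6 to 169.3 and 108.3 to 122.1 CPM (2 higher, 3 lower), and that of 10 macrophage markers 290.2 to 342.3 and 365.2 to 407.8 CPM (5 higher, 1 lower). Fibroblast markers had a sum over 11 genes of 16080 to 16680 and 14710 to 15600 CPM (2 higher, 6 lower). They ranged from Lum (12.9 and 10.1 CPM) to Col1a1 (4561 and 4070 CPM). Tcf21 fell from 58.25 to 23.13 CPM, a log2 fold change of -1.33, whereas Vim (2548 to 2968 CPM) and Pdgfra (121.8 to 145.3) were the 2 called higher. Pdgfrb made up most of the mural sum (1413 and 1268 CPM) and Lyz2 most of the macrophage sum (202 and 235 CPM). The smaller mural markers moved both ways. Notch3 (41.4 to 13.6 CPM), Mcam (59.5 to 30.5) and Myh11 (3.47 to 1.76) fell, whereas Cspg4 (22.4 to 63.3) and Rgs5 (4.17 to 6.92) rose. The epicardial and fibroblast sums were lower and the macrophage sum higher under the label Ad-IRF7 without overlap. Single markers of these lists also moved both ways. Upk3b (51.8 to 20.8 CPM), Bnc1 (10.45 to 3.37) and Lrrn4 (77.7 to 48.0) fell in the epicardial list. Krt19 (4.75 to 18.5 CPM) and Msln (7.91 to 9.05) rose. Itgam (14.1 to 29.7 CPM) and Mrc1 (5.59 to 11.6) were among the 5 macrophage markers called higher, whereas Cx3cr1 (2.54 to 0.691) was the 1 called lower. The part of any of these markers in the results was not tested. Of 10 cardiomyocyte markers only Tnnt2 passed the filter on low counts, and Myh6, the defining myosin, had at most 1 count in a library.

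Hif3a, whose product lacks part of the activation domain and can act as an inhibitor of the other alpha subunits, was close to absent. Its gene (ENSMUSG00000004328) lies on the minus strand of chromosome 7, from 17031507 to 17062427. It had 1, 0, 2 and 9 counts in the control libraries and 8, 7, 4 and 13 in those labelled Ad-IRF7, or 12 against 32 counts in all. The groups overlapped. With the filter lowered to a single count in total, the log2 fold change was 1.36 with an adjusted p of 0.16 from edgeR, so a difference was not detectable at this depth.

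**Figure D1:**
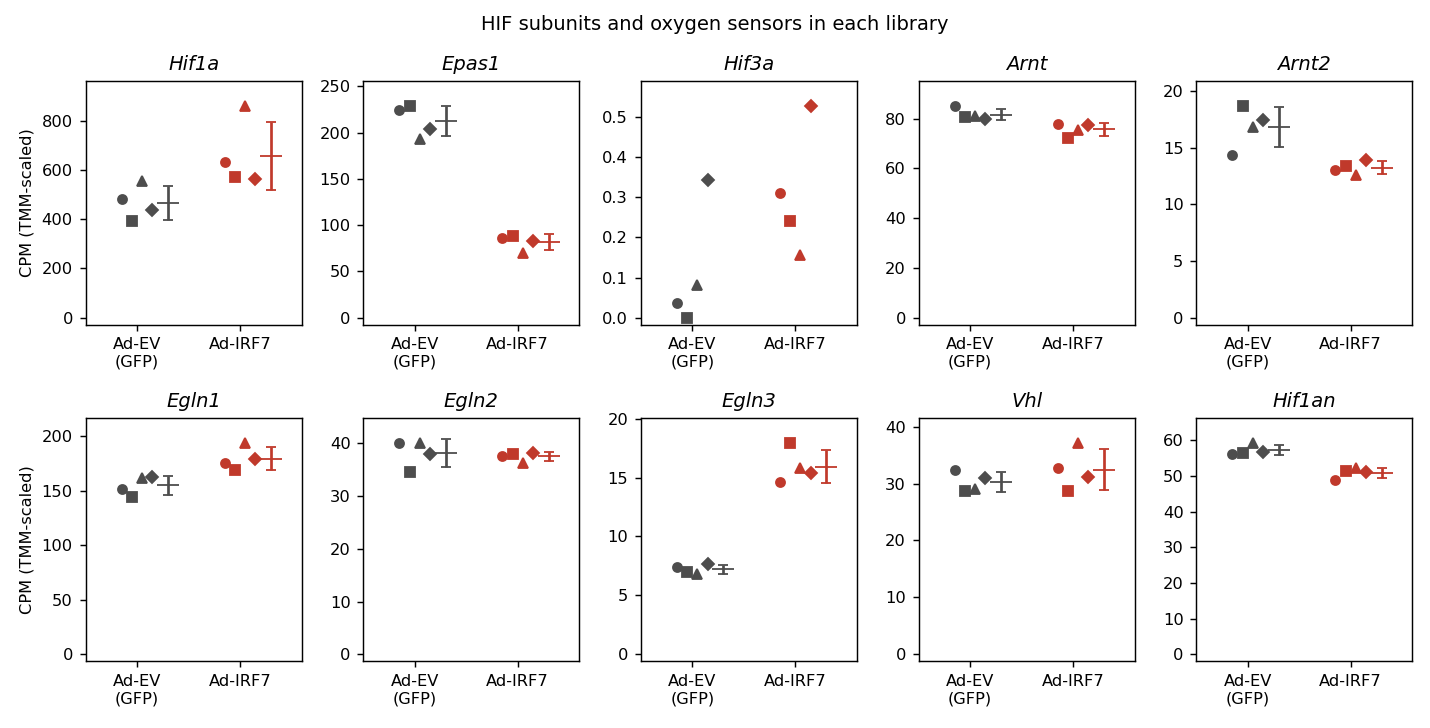
Level of each gene in each library, in CPM after TMM scaling on the vertical axis, with a separate axis for each gene; circles, squares, triangles and diamonds are replicates 1 to 4, and the bar beside the points is the mean with its SD (n = 4, not drawn for Hif3a). For Epas1 and Egln3 the groups are far apart, for Hif1a the nearest libraries are at 558 and 564 CPM, and for Egln2, Vhl and Hif3a the groups overlap.

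Both beta subunits were lower by small amounts. ARNT is the constitutive partner of the alpha subunits and also of the aryl hydrocarbon receptor, and ARNT2 is a close relative best known from neurons. Arnt (ENSMUSG00000015522, plus strand of chromosome 3, 95434388 to 95497240) was at 84.9, 80.6, 81.1 and 80.1 CPM in the control libraries and at 77.8, 72.2, 75.5 and 77.5 CPM in those labelled Ad-IRF7. The groups did not overlap, but the gap between them was small. The log2 fold change of Arnt was -0.11 (SE 0.04, 95% interval -0.19 to -0.03, adjusted p = 0.023, edgeR), and this call is the least stable of the pathway. It was lost without Ad-EV (GFP) replicate 1 (-0.09, adjusted p = 0.073), without Ad-IRF7 replicate 2 (-0.09, adjusted p = 0.077) and with scaling by library size only (-0.08, adjusted p = 0.077). Arnt2 (ENSMUSG00000015709, minus strand of chromosome 7, 84246278 to 84410176) was at 14.4, 18.7, 16.9 and 17.5 CPM against 13.0, 13.4, 12.6 and 14.0 CPM. Ad-EV (GFP) replicate 1 came close to the libraries labelled Ad-IRF7. Arnt2 fell from 16.8 ± 1.79 to 13.3 ± 0.561 CPM (SD, n = 4), a log2 fold change of -0.34 (SE 0.08, adjusted p = 0.0018, edgeR).

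The 3 prolyl hydroxylases differed from each other. Egln3 encodes PHD3, the member whose transcript is most readily induced by hypoxia in many cells. Egln3 (ENSMUSG00000035105) lies on the minus strand of chromosome 12, from 54178981 to 54203860. Its level was 7.39, 7.01, 6.81 and 7.67 CPM in the controls (replicates 1 to 4) and 14.6, 17.9, 15.8 and 15.4 CPM under the label Ad-IRF7. The lowest library labelled Ad-IRF7 lay far above the highest control. Egln3 rose from 7.22 ± 0.384 to 15.9 ± 1.43 CPM (SD, n = 4), or 2.21-fold, with a log2 fold change of 1.14 (SE 0.08, 95% interval 0.96 to 1.32, adjusted p = 2.4e-08, edgeR).

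Egln1 encodes PHD2, held to be the main oxygen sensor of most cells. Egln1 (ENSMUSG00000031987, minus strand of chromosome 8, 124908587 to 124949324) was at 152, 144, 161 and 162 CPM in the control libraries and at 176, 169, 194 and 179 CPM in those labelled Ad-IRF7. No library overlapped with the other group, but the difference was much smaller than that of Egln3. Its log2 fold change was 0.21 (SE 0.05, 95% interval 0.11 to 0.32, adjusted p = 0.0014, edgeR), from 155 ± 8.67 to 179 ± 10.4 CPM (SD, n = 4). Egln2, which encodes PHD1, a mainly nuclear member, was not called. Egln2 (ENSMUSG00000058709, minus strand of chromosome 7, 27158658 to 27166802) was at 40.0, 34.5, 40.0 and 38.0 CPM against 37.6, 38.0, 36.3 and 38.2 CPM. Its log2 fold change was -0.02, and the 95% interval of -0.14 to 0.09 leaves room for a small change only (adjusted p = 0.72, edgeR).

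Downstream of the prolyl hydroxylases, Vhl was not called either. Vhl (ENSMUSG00000033933, plus strand of chromosome 6, 113623959 to 113631633) was at 32.4, 28.6, 29.1 and 31.0 CPM in the control libraries and at 32.8, 28.6, 37.1 and 31.2 CPM in those labelled Ad-IRF7. Apart from Ad-IRF7 replicate 3, at 37.1 CPM, the groups covered the same range. The log2 fold change of Vhl was 0.10 (95% interval -0.06 to 0.25, adjusted p = 0.26, edgeR). Hif1an (ENSMUSG00000036450, plus strand of chromosome 19, 44562850 to 44576274), which encodes FIH, was at 56.2, 56.5, 59.2 and 56.7 CPM against 49.0, 51.5, 52.3 and 51.0 CPM. Its values were even within the groups, which did not overlap. Hif1an fell from 57.2 ± 1.39 to 50.9 ± 1.42 CPM (SD, n = 4), a log2 fold change of -0.17 (SE 0.04, 95% interval -0.25 to -0.08, adjusted p = 0.0019, edgeR). Permuting the libraries, an exact and two-sided test on log2 CPM gave p = 0.029 for each of the 7 genes called, the smallest that 4 against 4 libraries allow, and 0.69 for Egln2 and 0.34 for Vhl.

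**Figure D2:**
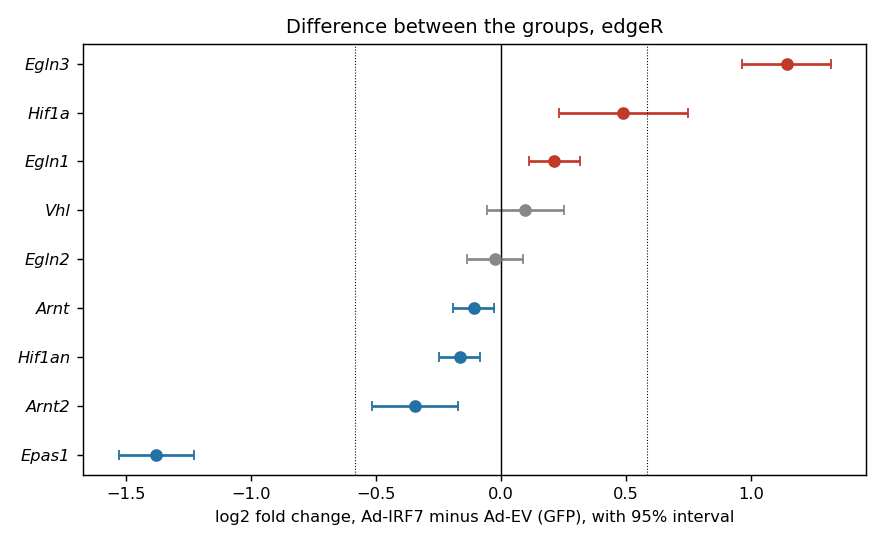
Log2 fold change of the 9 genes tested, libraries labelled Ad-IRF7 minus Ad-EV (GFP), on the horizontal axis; points are edgeR estimates with 95% intervals, red higher, blue lower and grey not called at an adjusted p under 0.05, and dotted lines mark 1.5-fold. Epas1 at -1.38 and Egln3 at 1.14 lie past the dotted lines with their whole intervals, whereas the interval of Hif1a, 0.23 to 0.75, reaches across one.

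To compare the genes with each other, the deposited FPKM were used, which are divided by gene length. Hif1a stood first in both groups, at 101 ± 15.1 FPKM in the control libraries and 144 ± 29.6 FPKM in those labelled Ad-IRF7 (SD, n = 4). In the control libraries Egln1 (42.6 FPKM) and Epas1 (38.2 FPKM) followed with overlapping values, then Arnt (23.4), Egln2 (18.5), Vhl (10.7) and Hif1an (9.14 FPKM). Arnt2 (2.78) and Egln3 (2.69 FPKM) overlapped near the end, and Hif3a came last at 0.02 FPKM. Under the label Ad-IRF7, Epas1 stood below Egln1 (50.3), Arnt (22.02) and Egln2 (18.4 FPKM), at 14.95 FPKM, where its libraries overlapped with those of Vhl (11.7 FPKM). Egln3 (6.04 FPKM) stood above Arnt2 (2.20 FPKM), and Hif1an was at 8.30 FPKM between Vhl and Egln3.

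The makeup of the alpha subunit transcripts shifted more than their sum. Hif1a, Epas1 and Hif3a added up to 126.0 to 154.9 FPKM in the control libraries and to 138.6 to 199.6 FPKM in those labelled Ad-IRF7, and these ranges overlapped. Epas1 made up 32.6% of the sum in the control library where its share was highest and 22.4% where it was lowest, against 6.31% to 11.4% under the label Ad-IRF7. The ratio of Hif1a to Epas1 was 2.57, 2.07, 3.46 and 2.57 in the controls (replicates 1 to 4) and 8.76, 7.75, 14.9 and 8.17 under the label Ad-IRF7. In both groups replicate 3 had the highest ratio. Hif1a was thus the more abundant alpha transcript in every library, and the ratio went from 2.67 ± 0.579 to 9.89 ± 3.36 (SD, n = 4).

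The prolyl hydroxylase transcripts increased in sum, from 59.32 to 66.29 FPKM in the control libraries to 73.04 to 77.6 FPKM in those labelled Ad-IRF7. Egln1 remained the largest part, with 65.3% to 67.7% and 65.1% to 69.5%. The share of Egln3 went from 3.83% to 4.40% up to 7.53% to 9.34%, and that of Egln2 from 28.0% to 30.4% down to 22.9% to 25.5%. Egln1 transcripts were still 6.98 to 9.08 times as abundant as Egln3 transcripts under the label Ad-IRF7, against 15.2 to 17.5 times in the control libraries. The beta subunits added up to 25.61 to 26.56 and 23.36 to 24.83 FPKM, of which Arnt2 made up 8.81% to 12.1% and 8.67% to 9.55%. These sums and shares are given as a description, and no test was made on them.

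**Figure D3:**
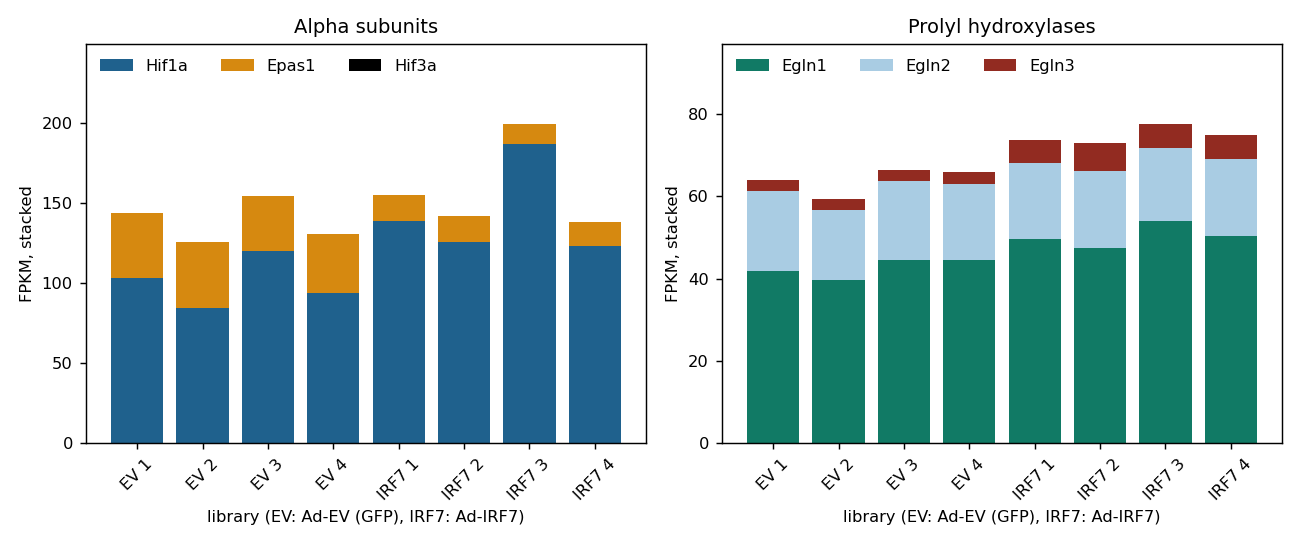
FPKM per library, stacked by gene, for the alpha subunits (left) and the prolyl hydroxylases (right); EV 1 to 4 are the libraries labelled Ad-EV (GFP) and IRF7 1 to 4 those labelled Ad-IRF7, and Hif3a, below 0.1 FPKM, is too low to be seen. The Epas1 part shrinks from 22.4% to 32.6% of the alpha sum to 6.31% to 11.4%, and the Egln3 part grows from at most 4.40% to at least 7.53% of the hydroxylase sum.

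Over the 8 libraries, the genes whose log2 CPM followed Epas1 most closely among 10320 genes above 5 CPM were Rab30, a small GTPase (Pearson's r 0.9994), Cers4, a ceramide synthase (0.9993), and Map2, a microtubule-associated protein (0.998). Map2 fell from 240 to 30.3 CPM. Those closest to Hif1a were Btbd3 (0.9959), Hspa1b, an inducible HSP70 chaperone (0.9937), and Arfip2 (0.9905). Hspa1b went from 78.6 ± 18.8 to 138 ± 53.8 CPM (SD, n = 4). These correlations are a description over 8 libraries that share the difference between the groups, and for Hif1a also the high replicate 3.

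The rest of the pathway was read from lists arranged by role. Of 98 genes tested in 6 lists, 41 were called higher and 23 lower, with a median log2 fold change of 0.07. Over all genes tested, 29.0% were called higher and 29.9% lower, with a median of 0.002. In the complex that VHL forms, 1 of 8 partners was called higher, 3 lower and 4 not called (median -0.01), and none passed 1.5-fold. Rbx1, the RING subunit that brings in the ubiquitin-conjugating enzyme, fell from 53.4 ± 3.17 to 45.8 ± 2.99 CPM (log2 fold change -0.22, adjusted p = 0.0029, edgeR), and Cand1, an exchange factor of cullin ligases, from 185 to 164 CPM (-0.17, adjusted p = 0.00041). Among 23 other regulators of the alpha protein, 6 were higher, 4 lower and 13 not called (median 0.03). Siah2, a ubiquitin ligase that targets prolyl hydroxylases, rose from 9.69 ± 0.948 to 15.8 ± 0.782 CPM (0.70, adjusted p = 3e-06).

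Of 11 HIF cofactors tested, 4 were higher, 3 lower and 4 not called (median 0.08), and Cited4 was too low to be tested. Beside the 29.0% called higher and 29.9% lower over all genes tested, these counts do not set the cofactors apart. Pkm, a glycolytic enzyme whose M2 form is described as a HIF-1 coactivator, rose from 1688 to 2593 CPM (0.62, adjusted p = 9.9e-09, edgeR) and was the 1 cofactor past 1.5-fold. Of 18 other oxygen sensors and 2-oxoglutarate dioxygenases, enzymes that use oxygen as the prolyl hydroxylases do, 7 were higher, 6 lower and 5 not called (median 0.13). Jmjd6, a lysyl hydroxylase of nuclear proteins, rose from 48.7 ± 1.59 to 76.4 ± 6.65 CPM (0.65, adjusted p = 1.4e-07). Tet1, which oxidizes methylcytosine, was low and fell from 2.02 ± 0.406 to 0.715 ± 0.192 CPM (-1.49, adjusted p = 0.00012), but limma gave -0.03 on log2(FPKM + 1) (adjusted p = 0.85) and -0.23 on log2(FPKM + 0.1) (adjusted p = 0.64), so its change rests on the counts. Of 9 other PAS-domain genes tested, the family of HIF and ARNT with some of its regulators, 1 was higher, 3 lower and 5 not called (median -0.23). Ahr, the aryl hydrocarbon receptor and a partner of ARNT, fell from 10.8 ± 1.03 to 7.83 ± 0.798 CPM (-0.46, adjusted p = 0.00082). Npas3 was at 2.97 ± 0.699 and 2.15 ± 0.201 CPM with overlapping groups (-0.47, adjusted p = 0.041), and this call was lost in 10 of 16 alternatives.

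The list of HIF-responsive genes leaned toward higher levels. Of 30 tested, 23 were called higher, 4 lower and 3 not called, with a median log2 fold change of 0.42, and 12 rises and 2 falls were past 1.5-fold. Over all genes tested, 29.0% were called higher and 29.9% lower, and 9.26% and 9.64% were so past 1.5-fold. Ak4, a mitochondrial adenylate kinase, rose from 66.7 ± 8.26 to 179 ± 21.4 CPM (1.42, adjusted p = 3.9e-09, edgeR). Bnip3, a receptor for mitochondrial autophagy, rose from 67.2 ± 5.94 to 142 ± 24.4 CPM (1.08, adjusted p = 2e-07). Ankrd37, a nuclear ankyrin protein, rose from 1.19 ± 0.503 to 3.70 ± 1.13 CPM (1.63, adjusted p = 0.00019) on 15 to 131 counts a library. The falls were those of Stc2, a secreted glycoprotein, from 59.3 ± 5.10 to 27.8 ± 5.23 CPM (-1.10, adjusted p = 3e-07), and of Adm, Edn1 and Plod2. Adm encodes the vasodilator adrenomedullin, Edn1 the vasoconstrictor endothelin-1 and Plod2 a collagen lysyl hydroxylase, and they were named after their values were seen. Their log2 fold changes were -0.60, -0.52 and -0.36. The genes not called were P4ha1, Rora and Car12. Car9 was too low to be tested and Epo, the erythropoietin gene, had 0 counts in all 8 libraries, which allows up to 3 counts in each. All of these lists were written with earlier results of these data known, so the lean is no independent evidence of a direction.

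**Figure D4:**
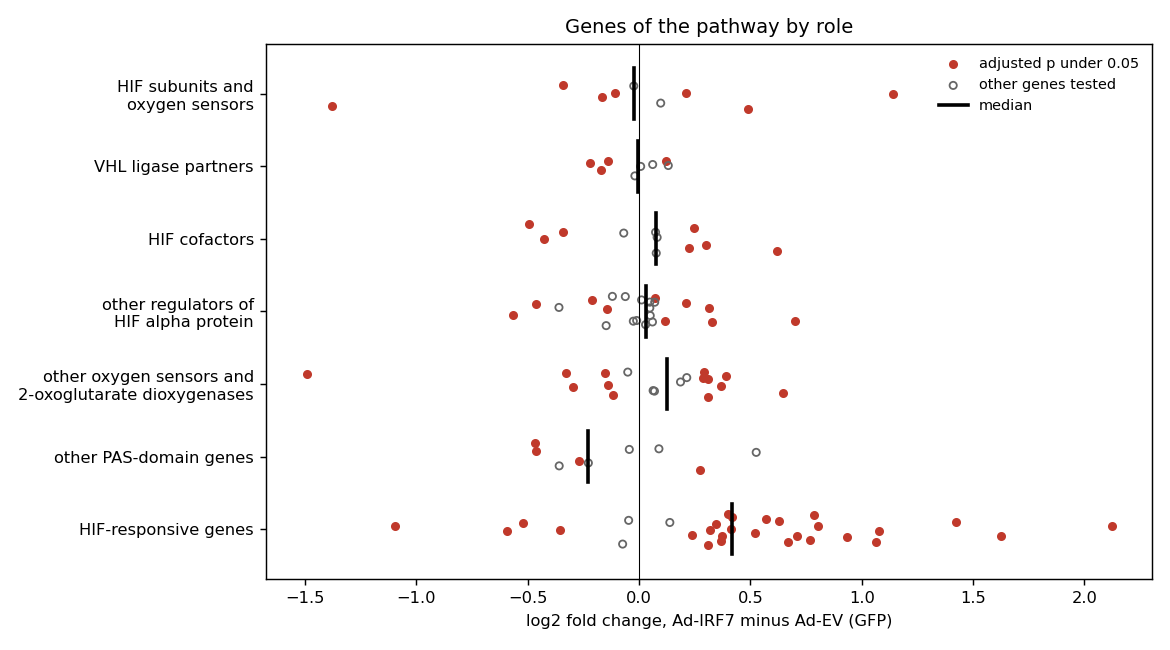
Log2 fold change of each tested gene, libraries labelled Ad-IRF7 minus Ad-EV (GFP), on the horizontal axis, with 1 row for each list by role; filled points have an adjusted p under 0.05 from edgeR, open points do not, black bars are medians, and the vertical spread within a row has no meaning. The HIF-responsive genes have a median of 0.42 with 23 of 30 called higher, against 29.0% of all genes tested. The VHL ligase partners lie close to 0 with a median of -0.01.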

How the data were processed

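RNA-seq libraries of TGF-β-treated primary fibroblasts of the mouse heart were analysed (4 labelled GFP, 4 labelled OEIRF7). Reads were trimmed (Trimmomatic) and aligned to GRCm38 (HISAT2), and the authors deposited unnormalised counts per gene from HTSeq-count. They also deposited FPKM (fragments scaled to gene length and library size) from Cufflinks, rounded to 2 decimals. Versions and the strand setting of the counting are not given in the sources used here, so antisense overlaps are uncertain. The table also holds the authors' group means, fold changes, p-values and FDR, which were not used. In 121 gene symbols the letters nc had been replaced by GFP, and these were restored by identifier. Coordinates are those of GENCODE M21 (22219 of 22274 identifiers found).

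Counts were tested in edgeR 4.0.16 (R 4.3.3) after filterByExpr and TMM, with glmQLFit and glmQLFTest and no covariate. P-values were adjusted by Benjamini-Hochberg over 13533 genes, and a gene was called at an adjusted p under 0.05. Intervals of fold changes are at the 95% level. The test was checked on simulated data. With counts of 0, up to 3 counts are allowed, for counting error only.

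The 10 HIF pathway genes were taken by symbol and not by value. Earlier results of these data were known when they and the lists were chosen. All 10 HIF pathway genes are named. From each other list, up to 4 genes called past 1.5-fold with a mean above 1 CPM are named by size, or else the 2 largest called. For Epas1 and Hif1a, the 3 genes with the highest correlation are named. A list drawn up for HIF-responsive genes outside glycolysis also holds Slc2a1, Ldha, Pdk1, Pfkfb3 and Pfkfb4, and is called HIF-responsive here. Alternatives were DESeq2 1.42.0, upper-quartile scaling, library size only, other filters on low counts, a replicate block, 1 library left out at a time, and limma 3.58.1 on log2(FPKM + 1) and log2(FPKM + 0.1). CUT&Tag and protein data were not analysed here.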

Additional observations from a re-analysis of the deposited data

Results flagged for a closer look

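Hif1an stood out in 1 control library. Ad-EV (GFP) replicate 3 was at 59.2 CPM, whereas the other 3 control libraries lay between 56.2 and 56.7 CPM, and its gap to the nearest of them was 0.844 of the range of the group. The position of this library lies away from the libraries labelled Ad-IRF7, and without it the log2 fold change of Hif1an was -0.15 (adjusted p = 0.009, edgeR) instead of -0.17. Of 20 groups of 4 libraries examined, this was the 1 that passed, and chance alone passes about 1 in 20.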

How the results depend on the processing

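Of the 9 genes tested, 8 kept their direction or lack of a call in all 16 alternatives, and the exception was Arnt. Arnt lost its call with library size only (-0.082), with limma on log2(FPKM + 1) (-0.082) and with limma on log2(FPKM + 0.1) (-0.085), and leaving out each library in turn moved it from -0.123 to -0.087. The cause was not tested. Epas1 stayed between -1.42 and -1.30, Egln3 between 0.93 and 1.18 and Hif1a between 0.33 and 0.58. Of 192 values of the 12 named pathway genes under the alternatives, 180 kept direction and call, 12 lost the call (Npas3 in 10 alternatives, Tet1 on the FPKM scale, at -0.03 and -0.23) and 0 reversed. Libraries with the same replicate number had correlations of their deviations of 0.0792, 0.0953, 0.138 and 0.104, and every library correlated best with its own number, which is a hint from the data only, since the labels do not pair them. With the replicate number as a block, 4057 genes were called higher and 4154 lower, against 3924 and 4045, and no call among the 9 genes changed (Hif1a 0.48, adjusted p = 4e-08, edgeR). Hif3a, at 0 to 13 counts a library, is limited by depth.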
